A study of Mus musculus with 2 samples.

Results

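The hormone inputs described here are 9 genes for receptors of growth hormone, prolactin, oestrogen, thyroid hormone and glucocorticoids and for the signalling proteins downstream of the first pair: Ghr, Prlr, Stat5a, Stat5b, Socs2, Esr1, Nr3c1, Thra and Thrb. They were chosen by name, as inputs known to act on duct genes and on the genes of urinary proteins, and they are 9 of the 36870 gene names on the array, represented by 30 probes. Gene expression was measured in epithelial cells collected on magnetic beads against EpCAM, an adhesion molecule of epithelial cells, taken from submandibular glands of C57BL/6 females. The young group was aged 9 weeks and the aged group 24 months, with 1 array each, and no genotype, transgene or treatment is given for either. The labels give an N of 1 for each age. Per the study's methods, the young mice came from a breeder and the aged mice from the animal facility of the institute, so that age and source cannot be told apart. The methods name the strain C57BL/6N.

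Growth hormone and prolactin bind receptors that have no enzyme activity of their own and signal through the kinase JAK2, which phosphorylates STAT5A and STAT5B. These factors enter the nucleus and switch on genes such as Socs2, whose product dampens the same signal. The receptors for oestrogen, glucocorticoids and thyroid hormone are themselves transcription factors that bind DNA, and the thyroid hormone receptors do so mostly in pairs with retinoid X receptors. In the mouse submandibular gland, the granular convoluted ducts, which store EGF and kallikreins, are known to respond to androgens, thyroid hormone and glucocorticoids, and in mouse liver the major urinary protein (Mup) genes respond to growth hormone through STAT5.

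Each probe is a DNA oligonucleotide of 60 bases that captures labelled copies of the transcript. Examples read in the sense direction show the kind of sequence behind the values: a Ghr probe across an exon junction in the part that encodes the extracellular, hormone-binding domain, the Socs2 probe with the highest difference, and an Esr1 probe in the part of the transcript that encodes the ligand-binding domain. The capitals mark the whole codons of the only 1 of the 3 sense frames that is free of stop codons.
Ghr, A_52_P680941: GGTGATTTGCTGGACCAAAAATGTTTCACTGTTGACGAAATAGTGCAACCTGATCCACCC
Socs2, A_55_P1992838: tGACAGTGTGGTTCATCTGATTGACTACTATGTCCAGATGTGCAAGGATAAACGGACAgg
Esr1, A_55_P2030883: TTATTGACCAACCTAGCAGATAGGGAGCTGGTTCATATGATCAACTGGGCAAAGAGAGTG
In the build of the files (mm9), the Ghr probe spans chr15:3283509-3290961, the Socs2 probe lies at chr10:94875468-94875527 and the Esr1 probe at chr10:5489352-5489411, all on the minus strand. No annotation of that build was used, so that positions in exons and untranslated regions were not looked up. The coding regions and domains named for these probes rest on background knowledge of the proteins and on the open frame, and were not checked against a transcript.

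Of the 9 genes, 8 gave a signal that the scanner software marked as well above background, called above background here, and Esr1 did not. None of the 8 differed by 2-fold between the ages, the threshold named in the study's methods, while 4.55% of the 18693 genes measured on both arrays did. By the brightest probe of each gene, 6 were lower on the aged array (Nr3c1, Thra, Ghr, Prlr, Thrb and Stat5b) and 2 were higher (Stat5a and Socs2), while over 7 ways of scaling the arrays 5 to 8 were lower. Their median difference, aged minus young, was -0.41 on the log2 scale after each array was set to its own 75th percentile, compared with 0.09 for all genes measured on both arrays, of which 40.1% were lower on the aged array and 59.9% higher. With 1 array per age there is no spread between mice and no test. The error given with each difference is that of the scanner software, which covers the measurement of the spots and not the mice. In a sample of many cells, fewer cells of a type and less RNA per cell cannot be told apart.

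Over the 30 probes, 20 were above background on both arrays, 2 on 1 array and 8 on neither. The differences of the 20 probes ran from -0.82 to 0.38 with a median of -0.28, and 15 were below 0. None of the 20 passed 2-fold, compared with 4.21% of all probes measured on both arrays (2.8% in the lower direction). Under the 7 scalings, 11 of the 20 probes stayed lower on the aged array, 1 stayed higher and 8 changed sign at least once. Processed signals below are in scanner units as deposited, before scaling, and the 75th percentile of the array was 256 for the young and 198 for the aged. Signals of different probes depend on the probe and were not compared with each other.

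**Figure D1:**
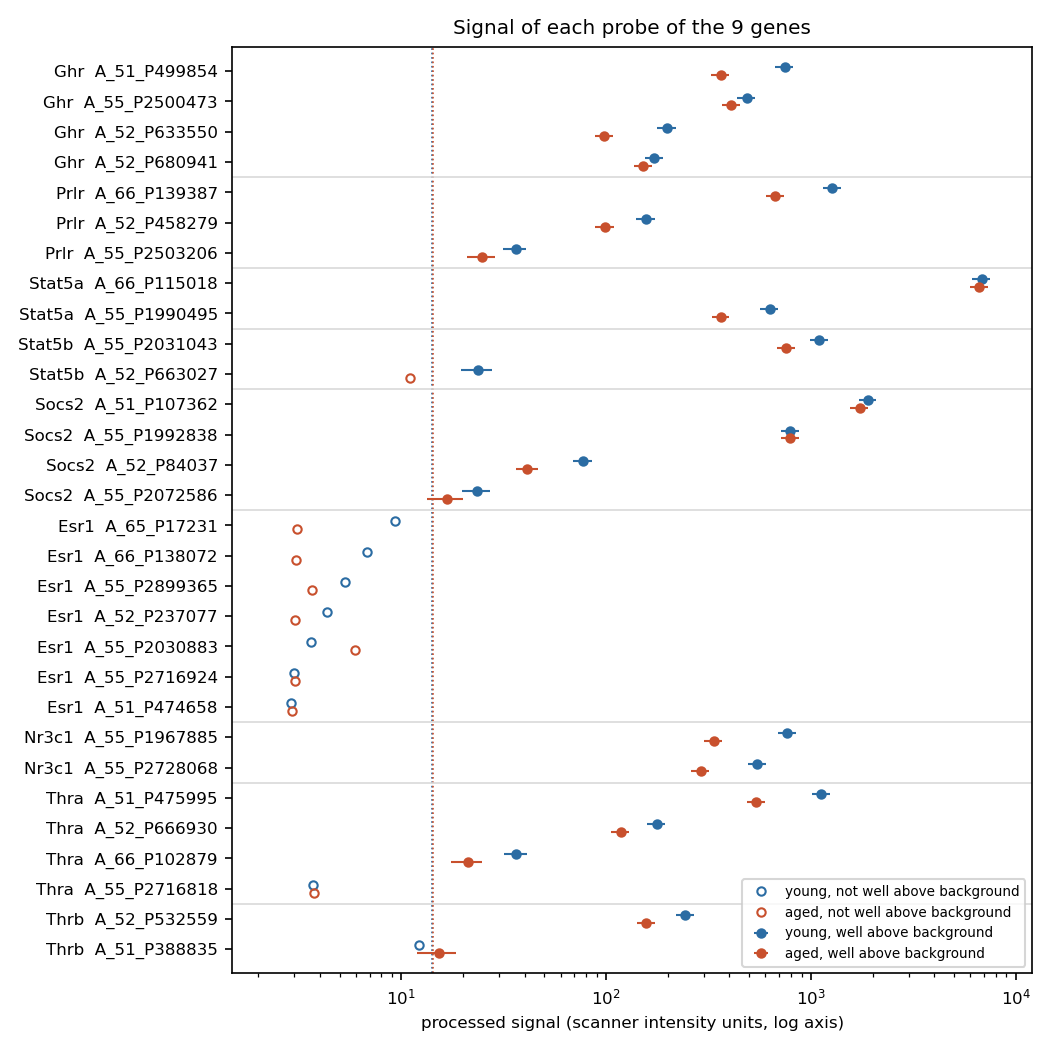
Processed signal of the 30 probes of the 9 genes on the young (blue) and aged (red) array, in scanner units on a log axis, with the software error as bars, filled points for probes above background and open points for the others. Dotted lines mark the lowest signal above background, 14.1 (young) and 14.3 (aged), and all 7 Esr1 probes lie to the left of them.

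Ghr encodes the growth hormone receptor. In mice it also gives a shorter transcript for the soluble growth hormone-binding protein. The brightest probe, annotated to transcript variant 1 (A_51_P499854, chr15:3268107-3268166, minus strand), had a signal of 744 ± 74.5 (young) and 362 ± 36.4 (aged). The aged array was thus the lower, with a difference of -0.67 ± 0.20 (1.59-fold), and 6.05% of genes measured on both arrays had a lower difference. A further probe for a transcript of Ghr (A_52_P633550, chr15:3295320-3295379) gave 198 ± 20.1 and 98.2 ± 10.4, a difference of -0.64 ± 0.21. Both were lower under all 7 scalings.

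The other 2 Ghr probes, which the files annotate to transcript variant 2, the form for the binding protein, gave values close to 0. The probe A_55_P2500473 (chr15:3277543-3277602) gave 486 ± 48.7 (young) and 408 ± 40.9 (aged), a difference of 0.12 ± 0.20 after scaling. The junction probe printed above, whose sequence encodes a stretch that the receptor and the binding protein are known to share, gave 172 ± 17.5 and 152 ± 15.5, a difference of 0.19 ± 0.21. Both were above 0 in all scalings but the spike-in one. The difference of A_55_P2500473 was higher than that of the variant 1 probe by 0.79 ± 0.29. Between the lowest and the highest of the 4 Ghr probes, the gap was 0.86 ± 0.29.

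Prlr encodes the prolactin receptor, which also binds placental lactogens. Its brightest probe, for transcript variant 1 (A_66_P139387, chr15:10259066-10259125, plus strand), had a signal of 1273 ± 127 (young) and 668 ± 66.9 (aged). The difference was -0.56 ± 0.20 (1.47-fold lower on the aged array), and 8.02% of genes had a lower one. The other variant 1 probe (A_52_P458279, chr15:10255629-10255688) gave 156 ± 16.0 and 98.8 ± 10.5, a difference of -0.29 ± 0.21. The probe of variant 2 (A_55_P2503206, chr15:10278249-10278308) was dim at 36.1 ± 4.73 and 24.8 ± 3.95, a difference of -0.17 ± 0.30. All 3 probes were thus lower on the aged array, and their spread of 0.39 was close to its software error of 0.36. The brightest kept its sign under all 7 scalings, while the variant 2 probe was lower under 5 of them.

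Stat5a and Stat5b encode the closely related factors that JAK2 activates below both receptors. Neither differed by 2-fold, and the probes of Stat5a differed in opposite directions. The brightest Stat5a probe (A_66_P115018, chr11:100745240-100745299, plus strand) gave 6825 ± 683 (young) and 6616 ± 662 (aged). After scaling, the aged array was the higher by 0.33 ± 0.20 (1.25-fold), although loess and quantile scaling turned the sign. The second probe, downstream at chr11:100746373-100746432 (A_55_P1990495), gave 628 ± 62.9 and 364 ± 36.5, a difference of -0.42 ± 0.20 that was below 0 under all 7 scalings. The gap between the 2 probes was 0.74 ± 0.29.

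For Stat5b, the factor through which growth hormone acts on liver genes, the brightest probe (A_55_P2031043, chr11:100642045-100642104, minus strand) gave 1098 ± 110 (young) and 758 ± 75.9 (aged). The difference of -0.16 ± 0.20 did not exceed its software error, and it turned to 0.01 when the arrays were centred on their medians. The other Stat5b probe (A_52_P663027) was above background on the young array only, at 23.7 against 11.1, and the aged value was at least 1.28-fold lower. This is a lower limit, set by the lowest signal above background on the aged array.

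Socs2, a target of STAT5 whose product restrains growth hormone signalling, had differences above 0 with its brighter probes and below 0 with its dimmer ones. The brightest (A_51_P107362, chr10:94875066-94875125, minus strand) gave 1898 ± 190 (young) and 1730 ± 173 (aged), a difference of 0.24 ± 0.20 after scaling that turned slightly negative, to no lower than -0.02, under loess and spike-in scaling. The probe printed above gave 791 ± 79.1 and 793 ± 79.4, a difference of 0.38 ± 0.20, and was the only member probe higher under all 7 scalings. The dimmer probes, for other Ensembl transcripts named Socs2, were A_52_P84037, at 77.2 and 41.3 with a difference of -0.53 ± 0.23, and A_55_P2072586, at 23.5 and 16.7 with a difference of -0.12 ± 0.36. The highest and the lowest of the 4 probes were 0.91 ± 0.31 apart.

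**Figure D2:**
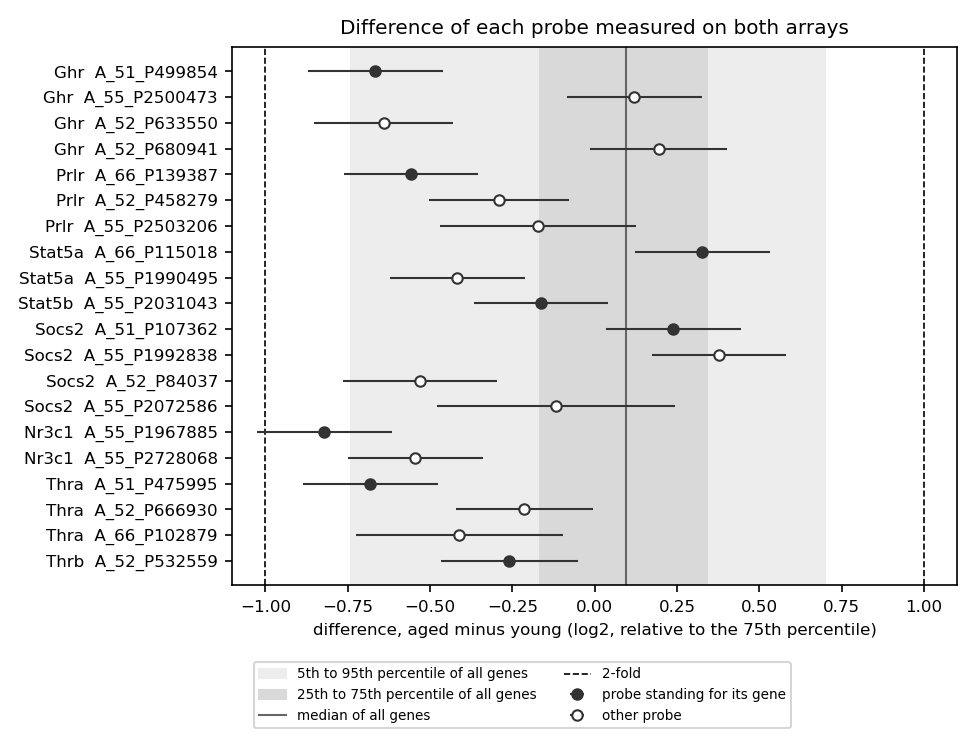
Difference of each of the 20 probes measured on both arrays, aged minus young on the log2 scale relative to the 75th percentile, with the software error as bars. Filled points are the probes that stand for their gene, shading gives the middle of all genes (5th to 95th and 25th to 75th percentile, median 0.09), and dashed lines mark 2-fold, which no probe reached.

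Nr3c1, the glucocorticoid receptor, had the lowest difference of the 8 measured genes. Its brightest probe (A_55_P1967885, chr18:39571641-39571700, minus strand) gave 766 ± 76.6 (young) and 335 ± 33.6 (aged). The difference was -0.82 ± 0.20 (1.77-fold lower), below that of all but 4.18% of the genes. The second probe (A_55_P2728068, chr18:39588272-39588331) gave 548 ± 54.9 and 290 ± 29.2, a difference of -0.55 ± 0.20. The gap between them, 0.28, was within its software error of 0.29. Both probes were lower under all 7 scalings, and the brightest passed 2-fold under spike-in scaling alone, at -1.08.

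Thra encodes thyroid hormone receptor alpha. The brightest probe (A_51_P475995, chr11:98626356-98626415, plus strand) gave 1122 ± 112 (young) and 541 ± 54.2 (aged), a difference of -0.68 ± 0.20 (1.60-fold lower) that lay above that of 5.82% of genes. The second probe (A_52_P666930, chr11:98625642-98625701) gave 177 ± 17.9 and 118 ± 12.1, a difference of -0.21 ± 0.21, and the junction probe A_66_P102879 gave 36.4 and 21.2, a difference of -0.41 ± 0.31. All 3 were lower on the aged array, the junction probe in 6 of 7 scalings and the others in all 7. A further Thra probe was above background on neither array.

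Thrb encodes thyroid hormone receptor beta. Its brighter probe (A_52_P532559, chr14:18868800-18868859, plus strand) gave 243 ± 24.6 (young) and 157 ± 16.1 (aged), a difference of -0.26 ± 0.21 (1.20-fold lower). The other probe (A_51_P388835, chr14:18866221-18866280) was above background on the aged array only, at 15.3 against 12.2, close to the lowest signal above background, and was at least 1.40-fold higher there. The 2 probes thus pointed in opposite directions, and averaging them, with the dim value as it stands, gave 0.22.

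Esr1, which encodes oestrogen receptor alpha, was not above background with any of its 7 probes. The signals ran from 2.91 to 9.30 (young) and from 2.92 to 5.96 (aged), compared with the lowest signal above background of 14.1 and 14.3. Of the 7 spots, 3 (young) and 6 (aged) held a value that the software puts in place of a signal below its error. No fold is given for Esr1, and the values limit the signal and do not show that the transcript is absent.

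The genes around these 9 in the same pathways were described with lists of 81 genes, of which 68 gave a signal above background on at least 1 array and 64 on both. Of the 64, 2 were higher and 1 was lower by 2-fold or more, compared with 1.51% and 3.04% of all genes measured on both arrays. The median difference was -0.07, with 25 genes above 0 and 39 below, a balance that turned with the scaling, to 39 above and 25 below with a median of 0.10 on centring on the median and to 13 above and 51 below under spike-in scaling. Those past 2-fold were Ltf, Zbtb16 and Hr. Ltf, an iron-binding secreted protein whose gene responds to oestrogen in the uterus, had a log2 signal relative to the 75th percentile of -3.80 (young) and -1.16 (aged), 6.25-fold higher, with the young value close to the lowest signal above background, -4.19. The difference of Ltf, 2.64, became 1.28 with normexp. Of the 5 oestrogen targets listed with it, itself included, Ctsd was at 0.43, Areg and Greb1 were above background on neither array, and Pgr was above it in the young sample only, with the aged value lower. Zbtb16, a transcription factor known as a target of glucocorticoids, was at -1.37 and 1.09 (5.48-fold higher) by its brightest probe. Its other probe, above background on the young array only, pointed the other way with a limit of -0.33, and averaging the probes moved the difference from 2.46 to 1.03. Hr, a corepressor and known target of thyroid hormone in brain, was at -0.09 and -1.22 (2.19-fold lower), and did not reach 2-fold on centring on the median (-0.96) or with normexp (-0.71).

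Upstream and beside the STAT5 factors, the ligands Gh and Prl were not above background on either array. Jak2, the kinase bound to both receptors, had a difference of -0.51 and was lower in all scalings. The other Janus kinases ran from -0.41 (Tyk2) to 0.22 (Jak3). Of the 11 inhibitors of the pathway, none passed 2-fold, and 4 were above and 7 below 0, compared with 6 and 5 on centring on the median and 2 and 9 under spike-in scaling. Cish, another STAT5 target of the SOCS family, had a difference of -0.09, which ran from -0.43 with loess to 0.09 on centring on the median, and the highest of this list was Ptpn1, a tyrosine phosphatase, at 0.56. Stat4 was above background on the young array only, with a lower limit of 1.20-fold for its decrease. With values below background taken as they stand, Stat4 joined Hr, so that 2 of the 68 genes were lower and 2 higher by 2-fold, compared with 7.91% and 3.05% of 21284 genes.

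The targets of STAT5 gave no common direction, with 3 of the 5 measured above 0 and 2 below, and a median of 0.20 that turned to -0.05 under spike-in scaling. Bcl6, a repressor that competes with STAT5 for its sites, had the highest difference of 0.69, and Ccnd1, a cyclin of the G1 phase, the lowest of -0.62. Igf1, the growth factor that mediates many actions of growth hormone, depended on the probe. Its brightest probe was at 1.57 (young) and 1.77 (aged), a difference of 0.20 that turned to -0.05 under spike-in scaling, whereas its other measured probe was at -0.85 and -2.97, a difference of -2.12. Igfals and Cux2 were not above background.

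Among the nuclear receptors outside the 9 genes, none passed 2-fold. Esr2, oestrogen receptor beta, had a difference of -0.33 and Nr3c2, the mineralocorticoid receptor, of -0.39, and both were lower under all 7 scalings. The Esr2 value rests on 1 probe, at 2.13 (young) and 1.80 (aged), whereas its other probe was above background on neither array. Pgr, the progesterone receptor, was above background with 1 of its 4 probes and on the young array only, with the aged value at least 1.41-fold lower. Rxra, a partner of the thyroid hormone receptors, had a difference of -0.11. Over the scalings it ran from -0.38 with loess to 0.06 on centring on the median, and it was -0.44 with its probes averaged. All 7 coactivators and corepressors were below 0, from -0.50 (Ncoa2) to -0.06 (Ncoa3), with a median of -0.20, although 2 of them turned positive under a further scaling.

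All 5 chaperones of steroid receptors were higher on the aged array, with a median of 0.45 and none past 2-fold. Over the scalings, 3 to 5 of them were higher, and the median ran from 0.08 with loess to 0.62. Fkbp5, an immunophilin that is induced by glucocorticoids and restrains their receptor, was at 0.68 (young) and 1.59 (aged), a difference of 0.91 that exceeded that of 98.1% of genes and ran from 0.65 to 1.08 over the scalings. Its dimmer probe gave -0.28. Tsc22d3 (GILZ), another glucocorticoid target, differed by 0.07, and its sign changed with the scaling. Of the 7 glucocorticoid targets, 5 were below 0, with a median of -0.07, whereas on centring on the median 5 were above 0 and the median was 0.10. Apart from Zbtb16, the values ran from -0.44 (Sgk1) to 0.07. Of the 5 measured enzymes that convert steroids, 2 were above and 3 below 0, with a median of -0.01. Over the scalings, 0 to 4 of these enzymes were above 0. The lowest was Srd5a1, which makes dihydrotestosterone. It was close to the threshold at -0.97 (1.96-fold lower), and ran from -1.23 to -0.41 over the scalings.

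On the thyroid hormone side, Dio1, a deiodinase that activates the hormone, had a difference of 0.32 by a probe close to the background, at -3.79 and -3.46. Its other 2 probes were above background on the young array only, the brighter of them with a limit of -0.34 in the opposite direction, and Dio2 and Dio3 were above background on neither array. The transporter Slco1c1 was at -0.67. Of the 4 thyroid hormone targets, 3 were below 0, with a median of -0.10 that turned to 0.07 on centring on the median. Beside Hr, they were Me1, the cytosolic malic enzyme, at 0.51, Thrsp, a regulator of lipid synthesis, at -0.02, and Klf9, a zinc finger factor that also responds to glucocorticoids, at -0.18.

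**Figure D3:**
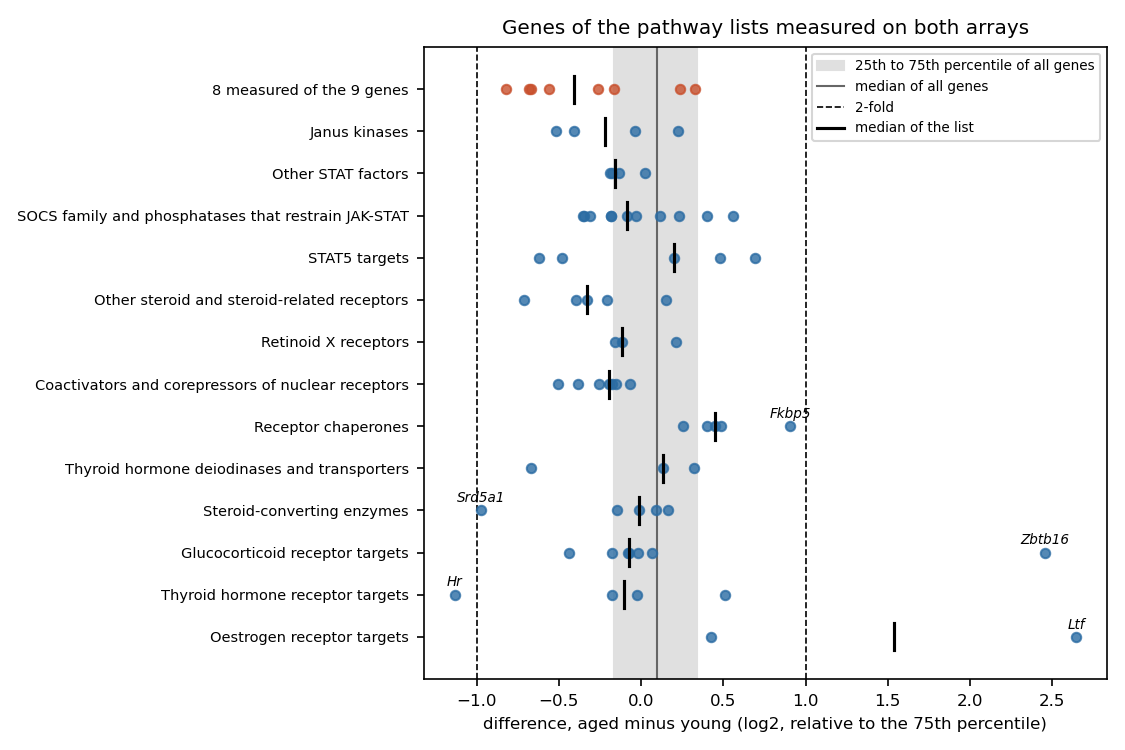
Difference of each gene measured on both arrays, aged minus young on the log2 scale relative to the 75th percentile, for the 8 measured of the 9 genes (red) and the pathway lists (blue), with a bar at the median of each list. Ltf, Zbtb16 and Hr lie beyond the dashed lines at 2-fold, the median of these 8 is -0.41, the coregulators lie below 0 and the chaperones above it, with exceptions under further scalings.

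The labelled cell type was checked with marker genes, since several of the 9 genes are also used by other cells. Epcam was measured on both arrays with a difference of 0.20, which turned to -0.06 under spike-in scaling, and the summed level of 8 epithelial genes was 517 (young) and 574 (aged), in multiples of the 75th percentile, most of it from Krt18 and Krt8. Of the 7 epithelial genes measured on both arrays, 5 were above and 2 below 0, among them Cldn4 at -0.55, compared with 1 and 6 under loess, and Krt19 was above background on the young array only, with the aged value at least 1.85-fold lower. The 6 acinar genes summed to 4577 and 6541, with Bpifa2 at 1.52 (0.74 under loess) and Smgc at -1.79. Of these 6, 4 were above and 2 below 0, with a median of 0.43, compared with 1 and 5 and a median of -0.49 under loess. The 6 genes of granular duct cells, the duct cells that respond to these hormones, summed to 1265 and 1164, with the probe of Klk1 the brightest. Of these 6, 5 were below 0 (3 to 6 over the scalings), with a median of -0.29, including Egf at -0.47.

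Markers of other cell types were present and differed between the arrays. The brightest gene of a list is that with the brightest probe, which is not a measure of abundance. The summed level of fibroblast genes was 18.7 (young) and 8.78 (aged), with Dcn the brightest, Dpt not above background and all 5 genes measured on both arrays lower, 3 of them past 2-fold. Macrophage genes summed to 190 and 101, with Lyz2 the brightest in the young and Itgam in the aged sample, and all 7 were lower, 4 of them past 2-fold, while under a further scaling 1 turned above 0. Endothelial genes summed to 5.99 and 4.16, T cell genes to 11.0 and 12.8, and B cell genes to 2.02 and 1.40, with Cd8a and Cd79a not above background. Of the 5 endothelial genes measured on both arrays, 4 were below and 1 above 0. Their median was -0.56, and ran from -0.82 to -0.39 over the scalings. Of the adipocyte genes, which summed to 6.97 and 5.79, Adipoq, Cidec and Plin1 were not above background, and of the liver genes, which summed to 2.72 and 1.92, Alb, Apoa1, Ahsg and Apob were not. In the basal and myoepithelial list, with sums of 67.5 and 75.6, 4 of the 7 genes were above and 3 below 0, with a median of 0.03, and Cnn1 and Myh11 were at -2.14 and -1.83. The summed levels of the fibroblast, macrophage, endothelial, B cell, adipocyte, liver and granular duct genes were thus lower, as were the values of Nr3c1, Ghr, Thra and Prlr. Those of the epithelial, acinar, basal and myoepithelial, and T cell genes were higher. The part of any of these cell types in the values of the 9 genes was not tested.

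**Figure D4:**
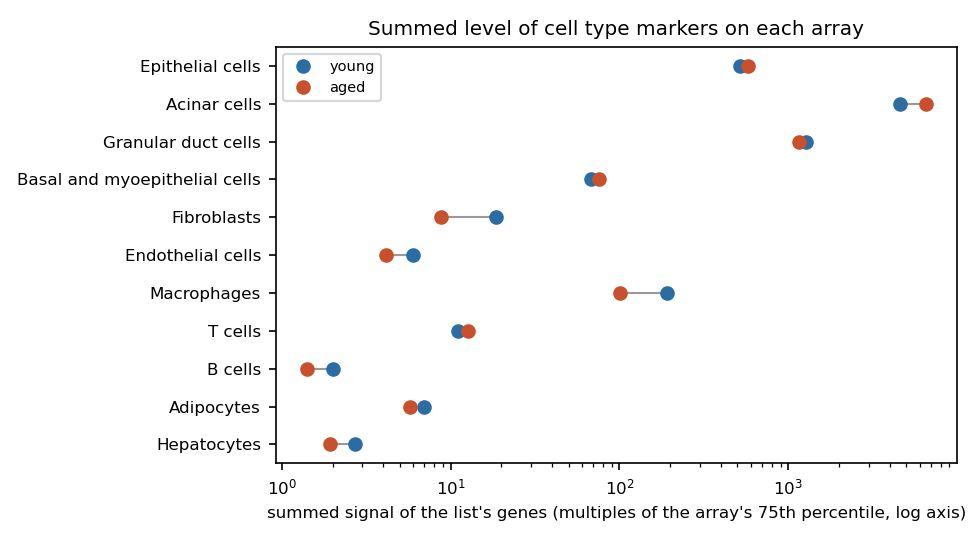
Summed level of the genes of each marker list on the young (blue) and aged (red) array, in multiples of the 75th percentile of the array on a log axis. The fibroblast sum goes from 18.7 to 8.78 and the macrophage sum from 190 to 101, and the epithelial sums lie close together.

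Beside these inputs, known outputs of duct and urinary protein genes did not share a direction. Egf had the difference given above, whereas 14 of the 15 Mup probes measured on both arrays were higher by 2-fold or more in the aged sample, with a median difference of 3.95, compared with 1.41% of all probes in that direction. Ttr, the thyroid hormone carrier transthyretin, had a difference of 4.33, which was 2.36 with normexp. These probes were taken up with their values known, and near-identical Mup copies share them.

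The differences of the 8 measured genes depended on the scaling and on how probes were combined. Over the 7 scalings, Nr3c1 ran from -1.08 to -0.65, Thra from -0.94 to -0.51, Prlr from -0.81 to -0.38 and Thrb from -0.52 to -0.09, all below 0. Ghr ran from -0.92 to 0.08, the last under the normexp background correction, in which its variant 2 probe was the brightest and stood for the gene. Stat5a ran from -0.09 to 0.50, Socs2 from -0.02 to 0.41 and Stat5b from -0.42 to 0.01, each crossing 0. With the probes of a gene averaged, Nr3c1 was at -0.68, Thra at -0.44, Prlr at -0.34 and Ghr at -0.25. Stat5b was then at -0.44, Stat5a at -0.05, Socs2 at -0.01 and Thrb at 0.22. The median of the 8 genes was 0.50 below that of all genes measured on both arrays with the 75th percentile, and 0.28 below it with normexp.

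**Figure D5:**
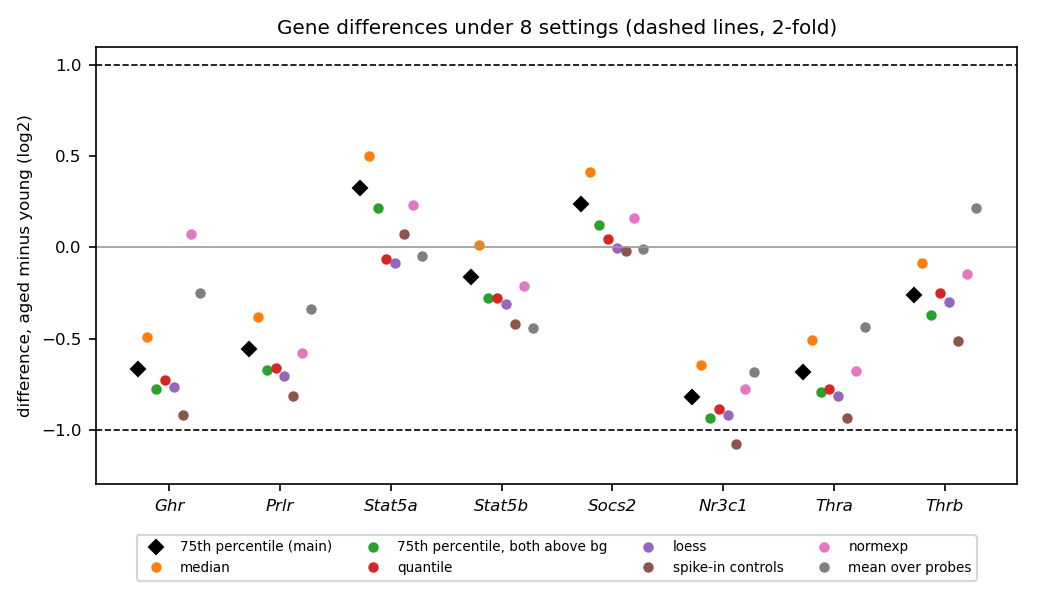
Difference of the 8 measured genes, aged minus young on the log2 scale, under the main scaling (black diamonds), 6 other scalings and averaging over the probes of a gene. Points of Nr3c1, Thra and Prlr lie below 0 under every setting drawn, and the points of Stat5a and Socs2 lie on both sides of 0.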

How the data were processed

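RNA of each age was labelled with Cy3 and hybridized to an Agilent mouse 8 x 60K array, 1 array per age. The authors deposited scanner files made with Agilent Feature Extraction 12.0.3.1, per the submitters' processing notes, which hold the processed intensity of 62976 spots after background subtraction, with no scaling between arrays. They also deposited a table of normalized signal made with GeneSpring, which equals these intensities divided by 1 constant per array (229 young, 176 aged) within 0.1%, and which was used only as an alternative.

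Log2 of the processed signal minus log2 of the array's 75th percentile over 59305 non-control spots was taken. The study's methods name the 75th percentile without the set of spots, and the constants of the authors' table differ from the percentiles used here (256 young, 198 aged). Outlier spots (90 young, 93 aged) were left out on both arrays, and no spot was saturated. Repeated spots were averaged on the log2 scale. A probe was above background where the software marked most of its spots so (55.4% of young and 50.8% of aged spots carried the mark), and was kept if this held for either array. The kept probe with the highest mean stood for its gene. For a probe above background on 1 array only, its value there was compared with the dim value or, where higher, with the lowest marked signal of the dim array, a lower limit of the fold. Where 293 probes lay in several spots, the SD of the difference over spots had a median of 0.03, whereas the software error of the difference was about 0.20 or more. Precision is limited by having 1 array per age, and no p-value was computed.

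Gene names and coordinates (mm9) are those of the files. Of the 30 probes, 24 had an accession that names the same gene in a RefSeq gene table on GRCm38.p6, which was not used for coordinates. The genes, lists and markers were chosen with earlier results of these data known. All 9 genes with every probe were named, with the list genes past 2-fold, 10 direct partners, the markers and the duct outputs Egf, Ttr and Mup, except for a few genes that are not reported here. Other list genes in the text (Tyk2, Jak3, Ptpn1, Stat4, Bcl6, Ccnd1, Ncoa2, Ncoa3, Sgk1, Srd5a1, Ctsd and those of the thyroid hormone lists) were named after their values were seen. The 7 scalings were the 75th percentile, the median, the same percentile over spots marked on both arrays, quantile, loess (span 0.7, 3 iterations), spike-in controls (8 probes) and normexp (offset 50). Other alternatives changed the filter, the combination of probes, the outlier spots and the table. R 4.3.3 with limma 3.58.1, Python 3.11.15, numpy 2.4.6, pandas 2.3.3 and statsmodels 0.14.6 were used, with matplotlib 3.10.9 for the figures. The scaling to the 75th percentile, the averaging of spots, the choice of the brightest probe and the 2-fold threshold were checked on simulated data. The lower limits, the other scalings, the averaging of probes and the marker sums were not.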

Additional observations from a re-analysis of the deposited data

How the results depend on the processing

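Hr, Ltf and Zbtb16 kept their sign under the 13 alternatives, while several smaller differences did not. The count of the 9 genes at least 2-fold lower was 0, and became 1 with spike-in scaling (Nr3c1) and 1 with no filter on dim probes (Esr1, which is not above background). Their median of -0.41 became -0.66 with spike-in scaling and -0.18 with normexp. For the pathway lists, 2 genes were at least 2-fold lower with values below background as they stand (Hr and Stat4). This became 4 with spike-in scaling, 5 with no filter, 0 with normexp, and 1 each with centring on the median, with genes above background on both arrays only and with dim values raised to the lowest signal above background. The median of the lists, -0.07, became -0.28 with loess, -0.33 with spike-in scaling and 0.10 with centring on the median, a change of sign. Over all kept genes, 1684 were at least 2-fold lower and 649 higher. The lower count became 321 with normexp, 568 with genes above background on both arrays only and 1106 with dim values raised, and the higher count 211, 284 (both arrays) and, with no filter, 1680. The share of these genes that was higher was 27.8%, and became 38.0% (881 higher, 1435 lower) with centring on the median, 17.4% (473 and 2242) with spike-in scaling, 39.7% with normexp and 41.2% (1680 and 2398) with no filter. The median of all genes shifted by 0.17 with centring on the median, by -0.11 with the 75th percentile over probes above background on both arrays, by -0.13 with loess and by -0.26 with spike-in scaling. The cause of these changes was not tested, except that the filters change which genes are counted. Of 272 values of named genes under the alternatives, 219 moved by less than their software error and 53 by more. Much of this count was fixed in advance, so it does not measure how stable the values are. The changes of filter, outlier spots and table left most of these values as they were or shifted them by 0.01. Centring on the median and the 75th percentile over probes above background on both arrays shift all probes alike, by less than the software error. Stat5a (0.33) became -0.09 with loess and -0.06 with quantile scaling, Ghr (-0.67) 0.08 with normexp, and with probes averaged Thrb (-0.26) became 0.22 and Igf1 (0.20) became -0.96. Ltf (2.64, and 1.28 with normexp) and Zbtb16 (2.46, and 1.03 with probes averaged) stayed past 2-fold in 13 of 13 alternatives, and Hr in 11 of 13, the exceptions being centring on the median (-0.96) and normexp (-0.71). Ltf, Zbtb16 and Hr were named because they passed 2-fold in these data. The alternatives that changed the filter, outlier spots or table left their values the same or nearly so. No paired analysis was possible because there was 1 array per age and the labels carry no shared replicate numbers. Leaving out a replicate was not possible either.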
